A study of Mus musculus with 8 samples.

Results

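The metalloproteases of the cell surface and matrix, their tissue inhibitors and the lysyl oxidases were followed in NMuMG, a line of mouse mammary epithelial cells. Members were the genes with a symbol of the Mmp, Adam, Adamts, Timp or Lox and Loxl series whose normalised count, the reads of a gene divided by a size factor of its library, averaged at least 5 over the 8 libraries. This held for 45 of 70 matching symbols among the 18102 genes of the deposited table. They were 12 matrix metalloprotease genes (MMP), 13 ADAM genes, 9 ADAMTS genes, 3 ADAMTS-like genes, 3 TIMP genes and 5 lysyl oxidase genes. Just inside the limit lay Adamts4 (mean 5.26) and Adamtsl3 (5.28), and just outside it Adam21 (4.80) and Adamts8 (4.67). Mmp2 (0.670) and Timp4 (0.108) lay far below it.

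The 8 RNA sequencing libraries formed 4 groups of 2. The groups were cells labelled as an RREB1 knockout (KO) under TGFβ, the same cells under SB505124, which inhibits the kinase of the TGFβ type I receptor, and WT cells under each agent. Serum starvation for 6 h came first in all of them, followed by 100 pM TGFβ for 1.5 h or 2.5 µM SB505124 for 6 h. The SB505124 libraries are therefore not untreated, and the exposures differed in length. All KO columns carry the code KO1, taken here as 1 clone, so the KO label and the history of that clone cannot be told apart. Nothing in the labels makes the replicates separate cultures. The p-values then cover the spread between these samples and no more.

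Matrix metalloproteases are zinc enzymes that cleave collagens and other matrix proteins, either secreted or held on the cell surface. ADAM proteases release the outer parts of membrane proteins, ADAMTS proteases are secreted and act on proteoglycans, procollagens and microfibril proteins, and TIMPs block all of these families to differing degrees. Lysyl oxidases oxidise lysines of collagen and elastin so that the fibres become cross-linked. In mammary epithelium these enzymes take part in branching and in invasion, and TGFβ is a known regulator of several of them.

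Libraries held 25144204 to 32143113 reads. Rreb1, the gene named by the KO label, had normalised counts of 2481 and 2241 in KO-labelled TGFβ libraries, 1327 and 1343 in KO-labelled SB505124 libraries, 1959 and 1769 in WT TGFβ libraries and 1055 and 1033 in WT SB505124 libraries. It was higher in the KO-labelled libraries, by a log2 difference of 0.34 ± 0.08 (limma adjusted p = 0.00184) under TGFβ and 0.35 ± 0.08 (limma adjusted p = 0.00153) under SB505124, so the label is used only as a name. Such counts do not show whether or how the gene was edited, and this was not tested. The luminal keratin genes Krt8, Krt18 and Krt19 and the E-cadherin gene Cdh1 were abundant, and the 7 luminal markers summed to 173000 to 272000, although Epcam averaged 9.11 and Cldn7 1.50. Summed markers of other cells were far lower, at 20 to 89 for 7 basal genes, 181 to 238 for 7 leukocyte genes, 3.72 to 40 for 5 endothelial genes and 46.5 to 669 for 8 fibroblast genes. Some of the sums differed between the groups. The luminal sum was 269100 and 272000 in KO-labelled TGFβ libraries and 185500 and 199100 in KO-labelled SB505124 libraries. In WT cells it was 233200 and 234400 under TGFβ and 172800 and 181800 under SB505124. Within it Epcam was at 0 in all KO-labelled libraries and at 4.01 to 36.6 in WT libraries. The fibroblast sum was 384 and 416 in KO-labelled TGFβ libraries, 46.5 and 61.3 in KO-labelled SB505124 libraries, 514 to 669 in WT TGFβ libraries and 164 in each WT SB505124 library. It was led by Col1a1, while Lum, Thy1 and Pdgfrb averaged under 1. Col3a1 stood at 35.9 in KO-labelled TGFβ replicate 2 and at 0 to 3.00 in the other libraries. Col1a2 stood at 13.3 in that library and at 0 to 1.14 elsewhere. The basal sum was 75.1 and 88.2 in KO-labelled TGFβ libraries and 68.9 and 89 in KO-labelled SB505124 libraries, 54.9 and 68.4 in WT TGFβ libraries and 20 and 21.3 in WT SB505124 libraries. Within it Krt5 lay at 56.8 to 82.1 in KO-labelled libraries and 0 to 3.43 in WT libraries, while Krt14 was at 0 in all KO-labelled libraries and at 3.00 to 46.3 in WT libraries. The endothelial sum was 3.72 to 13.5 in KO-labelled libraries and 14.2 to 40 in WT libraries, with Pecam1 and Tek averaging under 1. The part of these markers in the results was not tested. In bulk samples such as these, fewer expressing cells and less RNA per cell cannot be told apart.

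A pair of inhibitors and a few proteases stood highest among the 45 genes. Divided by exon length, so that genes can be compared, the mean level over the 8 libraries was highest for Timp2 (12270 normalised counts per kb), which inhibits metalloproteases and also takes part in activation of MMP2 at the cell surface. Timp1, a secreted inhibitor, followed at 4181 per kb. Next came the membrane protease Adam9 (3723 per kb), the interstitial collagenase Mmp13 (3374 per kb), the sheddase Adam10 (1696 per kb) and the membrane-anchored collagenase Mmp14 (1067 per kb). Adam8 (624), Loxl4 (599.8), Loxl2 (524), Adam15 (442) and the sheddase Adam17 (337) completed the 11 highest genes. Single genes led their families, with Mmp13 holding 69.5% of the MMP level per kb, Timp2 74.6% of the TIMP level, Adam9 53.3% of the ADAM level and Loxl4 53.0% of the lysyl oxidase level.

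The summed level of the MMP genes was 3805 and 3781 per kb in KO-labelled TGFβ libraries and 5930 and 5553 per kb in KO-labelled SB505124 libraries. In WT cells it was 3995 and 3774 per kb under TGFβ and 6034 and 5954 per kb under SB505124. TGFβ libraries of both genotypes were thus below all SB505124 libraries. The lysyl oxidase sum was 694 and 648 per kb in KO-labelled TGFβ libraries and 633 and 662 per kb in KO-labelled SB505124 libraries, against 1710 and 1527 per kb in WT TGFβ libraries and 1635 and 1545 per kb in WT SB505124 libraries. There the split ran by genotype, with no KO-labelled library near a WT library. The TIMP sum was also lower in every KO-labelled library (14930 and 14190 per kb under TGFβ, 13070 and 13670 under SB505124) than in any WT library (20750 and 18930 under TGFβ, 18700 and 17420 under SB505124). The ADAM sum was 7378 and 6672 per kb in KO-labelled TGFβ libraries and 6796 and 6763 per kb in KO-labelled SB505124 libraries, against 6711 and 6210 per kb in WT TGFβ libraries and 7927 and 7470 per kb in WT SB505124 libraries. Both WT SB505124 libraries lay above the other 6, and the treatments overlapped in KO-labelled cells.

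**Figure D1:**
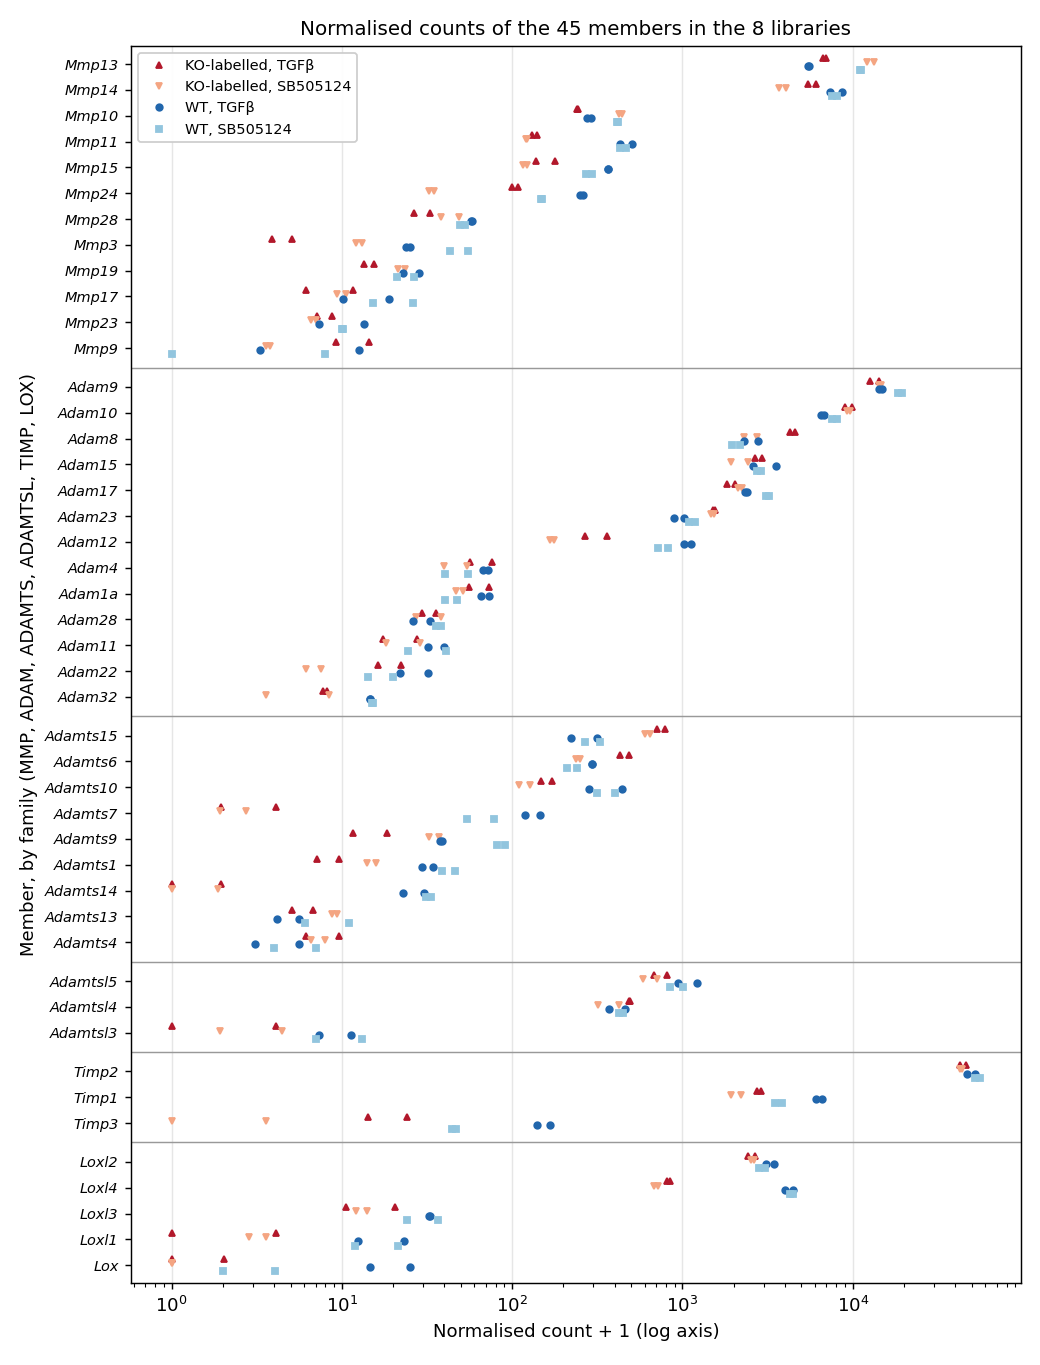
Normalised count plus 1 (log axis) of each of the 45 members in the 8 libraries, with 1 point per library and the members grouped by family. Levels run from 0 reads to 55935 for Timp2, and the points of Loxl4, Adam12, Adamts7, Adamts14 and Timp3 separate by genotype.

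Tests covered the 37 members with a mean of at least 10. The other 8 (Adamts4, Adamts13, Adamtsl3, Adam32, Mmp9, Mmp23, Lox and Loxl1) were at or below 24.2 in every library and are given as values near the end. Under TGFβ in KO-labelled cells 16 of the 37 members were called (limma adjusted p under 0.05 over all 12498 genes tested), 12 higher and 4 lower, which is 43.2% of the members. Of all genes 30.9% were called, 15.1% higher and 15.8% lower. In WT cells 16 members were also called, 8 higher and 8 lower (43.2%), beside 43.3% of all genes, 20.2% higher and 23.2% lower. The median log2 fold change of the members was 0.18 in KO-labelled cells, where that of all genes was -0.02, and 0.06 in WT cells, where that of all genes was -0.01. The 2 responses share no libraries. They had 11 called members in common, 68.8% of each list, all with the same direction. Over all genes, 2937 were called in both with the same direction, 76% of the calls in KO-labelled cells and 54.2% of those in WT cells. Mmp13, Mmp10, Mmp3 and Adamts9 fell, and Timp1, Timp3, Mmp15, Mmp24, Adam8, Adam12 and Adamts6 rose.

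Mmp13 encodes collagenase 3, the main interstitial collagenase of mice. Its normalised counts were 6731 and 6952 under TGFβ and 13279 and 12059 under SB505124 in KO-labelled cells, and 5452 and 5498 under TGFβ and 11050 and 11140 under SB505124 in WT cells. All 4 TGFβ libraries lay far below all 4 SB505124 libraries. The log2 fold change was -0.89 ± 0.08 (limma adjusted p = 3.51e-08) in KO-labelled cells and -1.02 ± 0.08 (limma adjusted p = 6.35e-09) in WT cells. Mmp10 (stromelysin 2) and Mmp3 (stromelysin 1) cleave a broad range of matrix proteins and can activate other MMPs. Mmp10 had 239 and 244 under TGFβ and 425 and 440.5 under SB505124 in KO-labelled cells and 288 and 273 under TGFβ and 419.6 and 409.5 under SB505124 in WT cells, again without overlap of the treatments. It fell by 0.84 ± 0.11 on the log2 scale in KO-labelled cells (limma adjusted p = 7.91e-06) and by 0.56 ± 0.11 in WT cells (limma adjusted p = 0.000483).

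Mmp3 was far scarcer, at 2.89 and 4.10 under TGFβ and 11.2 and 12.1 under SB505124 in KO-labelled cells and 24.2 and 22.9 under TGFβ and 53.7 and 42.1 under SB505124 in WT cells. TGFβ libraries were below SB505124 libraries within each genotype, and the KO-labelled libraries were below the WT ones under either agent. Its log2 fold change under TGFβ was -1.50 ± 0.36 (limma adjusted p = 0.00386) in KO-labelled cells and -0.98 ± 0.36 (limma adjusted p = 0.0359) in WT cells. The WT call was lost when any 1 of the 4 WT libraries was left out, with log2 fold changes of -1.16 to -0.81. It was also lost in DESeq2 and with no low-value filter. DESeq2 lost the call in KO-labelled cells as well (DESeq2 adjusted p = 0.0607). Adamts9, a secreted protease that cleaves the proteoglycans aggrecan and versican, had 10.6 and 17.4 under TGFβ and 31.6 and 36.3 under SB505124 in KO-labelled cells and 36.8 and 37.7 under TGFβ and 80.1 and 90.1 under SB505124 in WT cells. The treatments did not overlap within a genotype, with log2 fold changes of -1.25 ± 0.27 (limma adjusted p = 0.0017) in KO-labelled cells and -1.17 ± 0.27 (limma adjusted p = 0.00215) in WT cells.

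The 3 falling MMP genes lie near each other on chromosome 9, and the 250 bases before their RefSeq starts are shown because they share a short motif there. The windows are chr9:7272264-7272513 for Mmp13, chr9:7445572-7445821 for Mmp3 and chr9:7502092-7502341 for Mmp10, with chrX:20869916-20870165 of Timp1, a gene that rose, for contrast. All are on the plus strand of GRCm38.p6 (RefSeq) and read 5′ to 3′ toward the start. Capitals mark the AP-1 motif TGANTCA and, in Mmp10, also the SMAD motif CAGACA near the left end.
Mmp13: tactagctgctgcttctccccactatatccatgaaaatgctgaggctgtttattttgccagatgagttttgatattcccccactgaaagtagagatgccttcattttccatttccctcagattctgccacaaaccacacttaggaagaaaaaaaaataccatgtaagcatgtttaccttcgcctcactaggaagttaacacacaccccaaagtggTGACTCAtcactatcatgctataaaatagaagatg
Mmp3: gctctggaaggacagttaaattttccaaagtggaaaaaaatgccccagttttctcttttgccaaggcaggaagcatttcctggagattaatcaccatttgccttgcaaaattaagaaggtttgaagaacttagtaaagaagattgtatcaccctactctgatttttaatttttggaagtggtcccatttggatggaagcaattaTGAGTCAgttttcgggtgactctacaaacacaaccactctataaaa
Mmp10: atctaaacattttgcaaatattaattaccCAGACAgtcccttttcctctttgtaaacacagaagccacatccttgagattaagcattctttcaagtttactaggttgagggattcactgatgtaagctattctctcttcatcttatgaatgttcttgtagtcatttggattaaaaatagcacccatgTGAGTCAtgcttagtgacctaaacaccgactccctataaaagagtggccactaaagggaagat
Timp1: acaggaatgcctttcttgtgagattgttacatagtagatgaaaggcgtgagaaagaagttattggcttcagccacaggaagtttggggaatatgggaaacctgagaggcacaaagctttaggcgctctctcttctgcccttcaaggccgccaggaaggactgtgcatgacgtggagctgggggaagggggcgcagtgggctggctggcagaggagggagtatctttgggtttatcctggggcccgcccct
The AP-1 motif stood 35 bases before the start in Mmp13, 46 in Mmp3 and 63 in Mmp10. Both motifs were searched on both strands, and neither is in the window of Timp1. Nor is either in the window of Adamts9, which also fell in both genotypes. The windows of Adam10, Adam17 and Adam23, called lower under TGFβ in WT cells alone, lack both motifs too. RefSeq windows were at hand for 27 members, 28 windows in all. For 22 of them the bases just after the start were found in GENCODE M21 transcripts of the gene. The windows of Mmp10, Adamts9, Adam10 and Adamtsl5 were not among those, so the distances given for Mmp10 are uncertain. The AP-1 motif was in 3 of the 28 windows (10.7%), the 3 falling MMP genes shown, and in 6.7% of all 32851 windows. The SMAD motif was in 2 of the 28 (7.1%), Mmp10 and the ADAMTS-like gene Adamtsl5, and in 17.1% of all windows. A match describes the letters and is not a binding site.

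Among the genes that rose in both genotypes, Timp1 had 2722 and 2908 under TGFβ and 1918 and 2199.9 under SB505124 in KO-labelled cells and 6553 and 6052 under TGFβ and 3849.8 and 3498 under SB505124 in WT cells. The treatments did not overlap within a genotype, and all KO-labelled libraries were below all WT libraries. The log2 fold change under TGFβ was 0.45 ± 0.09 (limma adjusted p = 0.000487) in KO-labelled cells and 0.78 ± 0.09 (limma adjusted p = 9.98e-07) in WT cells. Timp1 lies within an intron of Syn1 on the opposite strand, and the library kit does not keep the strand. Syn1 averaged 7.92 ± 1.05 in KO-labelled TGFβ libraries, 6.61 ± 4.09 in KO-labelled SB505124 libraries, 81.7 ± 15.4 in WT TGFβ libraries and 38.8 ± 4.65 in WT SB505124 libraries (SD, n = 2 each), a small level beside Timp1. It was higher under TGFβ in WT cells as well (1.05 ± 0.38, limma adjusted p = 0.0302), and its part in the Timp1 values was not tested.

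Timp3 encodes the inhibitor that binds to the matrix and also blocks ADAM17 and several ADAMTS proteases. Its normalised counts were 23.1 and 13.3 under TGFβ and 0 and 2.59 under SB505124 in KO-labelled cells, and 166 and 139 under TGFβ and 45.6 and 43.1 under SB505124 in WT cells. WT TGFβ libraries were the highest, and the KO-labelled SB505124 libraries held 3 reads in all. In KO-labelled cells the ratio of TGFβ to SB505124 was 13.7 (exact 95% interval 4.33 to 69.3, counting error only; limma adjusted p = 1.31e-05). In WT cells the log2 fold change was 1.76 ± 0.45 (limma adjusted p = 0.0041). The exons of Timp3 share 21.3% of their bases with Syn3 on the opposite strand, which averaged 157 ± 9.16 in KO-labelled TGFβ libraries, 184 ± 0.442 in KO-labelled SB505124 libraries, 132 ± 2.26 in WT TGFβ libraries and 148 ± 14.8 in WT SB505124 libraries (SD, n = 2 each). Syn3 was not called under TGFβ in either genotype. Timp2, the most abundant inhibitor, had log2 fold changes of 0.04 ± 0.10 (limma adjusted p = 0.785) in KO-labelled cells and -0.13 ± 0.10 (limma adjusted p = 0.296) in WT cells and was not called.

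Mmp24 and Mmp15 encode membrane-anchored MMPs. Mmp24 had 107 and 99.4 under TGFβ and 31.6 and 33.7 under SB505124 in KO-labelled cells and 251 and 261 under TGFβ and 149 and 146 under SB505124 in WT cells, with the KO-labelled SB505124 libraries lowest and no overlap of groups. It rose by 1.63 ± 0.16 in KO-labelled cells (log2, limma adjusted p = 2.07e-07) and by 0.79 ± 0.16 in WT cells (limma adjusted p = 0.000687). Mmp15 had 138 and 176 under TGFβ and 114 and 122 under SB505124 in KO-labelled cells and 362 and 365 under TGFβ and 295 and 271 under SB505124 in WT cells. No SB505124 library of a genotype reached its TGFβ libraries, and the rises were small, with log2 fold changes of 0.40 ± 0.14 (limma adjusted p = 0.0395) in KO-labelled cells and 0.36 ± 0.14 (limma adjusted p = 0.0466) in WT cells. The first was lost without KO-labelled TGFβ replicate 2, either KO-labelled SB505124 library or either WT SB505124 library (limma adjusted p = 0.0515 to 0.399), with a value of 0.22 in the first of these fits. The second was lost without any 1 of the 4 WT libraries (limma adjusted p = 0.0949 to 0.227).

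Of the ADAM proteases, Adam8 and Adam12 rose in both genotypes. Adam8, known from leukocytes and tumour cells, had 4589 and 4267 under TGFβ and 2301 and 2750.1 under SB505124 in KO-labelled cells and 2778 and 2312 under TGFβ and 2183 and 1957 under SB505124 in WT cells. The KO-labelled TGFβ libraries stood above the other six. The log2 fold change was 0.81 ± 0.10 (limma adjusted p = 3.65e-06) in KO-labelled cells and 0.29 ± 0.10 (limma adjusted p = 0.024) in WT cells, and the WT call was lost without WT TGFβ replicate 1 (0.16, limma adjusted p = 0.231) or WT SB505124 replicate 2 (limma adjusted p = 0.224). Adam12, which cleaves several growth factor precursors, had 357 and 266 under TGFβ and 175 and 167 under SB505124 in KO-labelled cells and 1120 and 1026 under TGFβ and 821 and 722 under SB505124 in WT cells. Its treatments were apart in each genotype, with log2 fold changes of 0.85 ± 0.13 (limma adjusted p = 4.21e-05) in KO-labelled cells and 0.48 ± 0.13 (limma adjusted p = 0.00562) in WT cells. The WT call was lost without WT SB505124 replicate 2 (0.38, limma adjusted p = 0.0881). Adamts6, a secreted protease of microfibrils, had 485 and 431 under TGFβ and 250.3 and 235 under SB505124 in KO-labelled cells and 294 and 295 under TGFβ and 240.2 and 210.3 under SB505124 in WT cells. Its treatments did not overlap in either genotype. It rose by 0.91 ± 0.12 in KO-labelled cells (limma adjusted p = 9.83e-06) and by 0.39 ± 0.12 in WT cells (limma adjusted p = 0.0154), the second call being lost without WT SB505124 replicate 2 (limma adjusted p = 0.153).

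**Figure D2:**
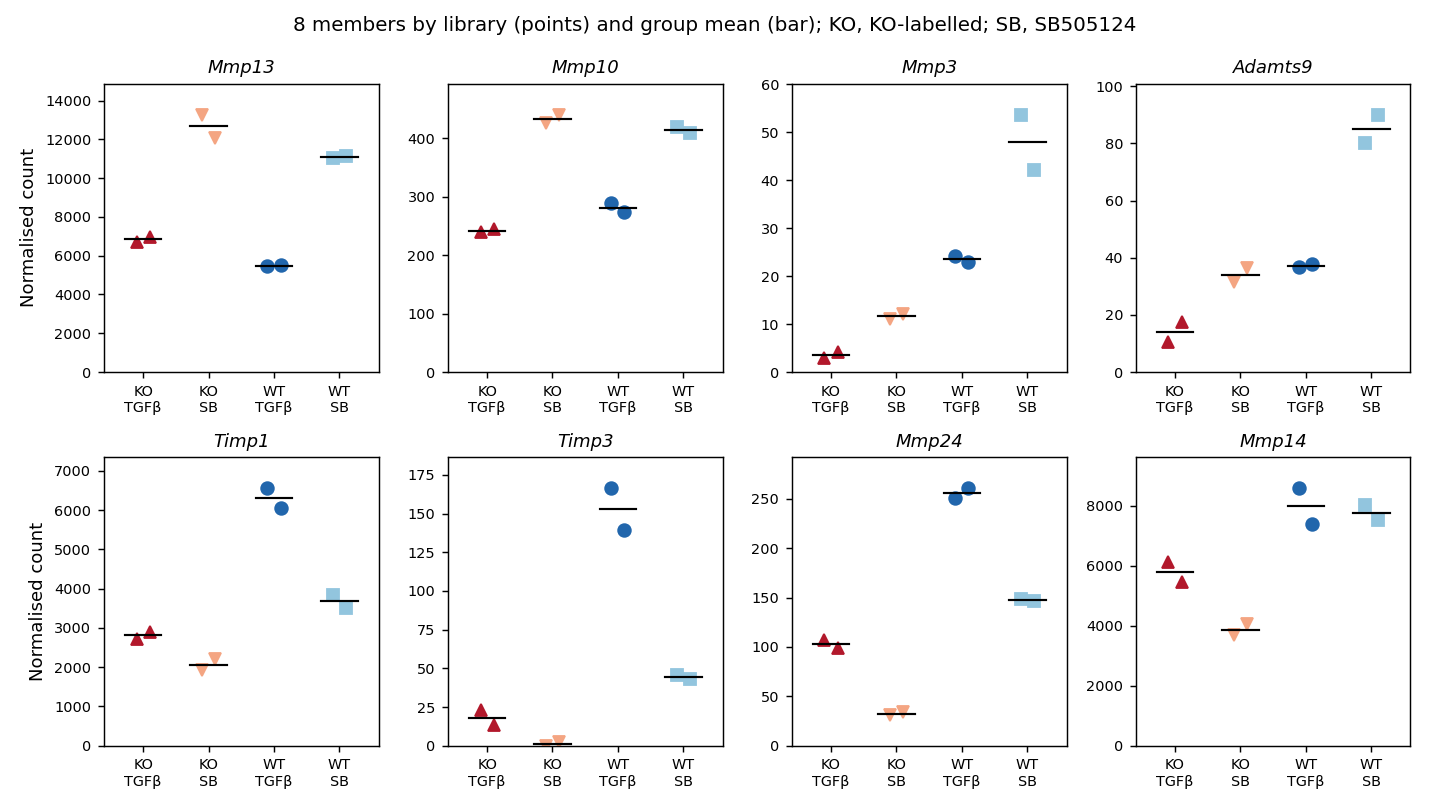
Normalised counts of 8 members by library (1 point each), with a bar at the mean of each group of 2 and axes that start at 0. Mmp13, Mmp10, Mmp3 and Adamts9 are lower under TGFβ than under SB505124 (SB) in each genotype, Timp1, Timp3 and Mmp24 are higher, and Mmp14 differs by treatment in the KO-labelled libraries, where it stands at 6124 and 5478 under TGFβ.

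Another 5 members were called in WT cells and not in KO-labelled cells. The sheddases Adam10, which cleaves Notch and ephrins, and Adam17, which releases TNF and EGF receptor ligands, are the best known. Adam17 had 2046 and 1827 under TGFβ and 2233 and 2129 under SB505124 in KO-labelled cells, with a log2 fold change of -0.17 ± 0.08 (limma adjusted p = 0.111). In WT cells it had 2399 and 2333 under TGFβ and 3213 and 3114 under SB505124 and fell by 0.42 ± 0.08 on the log2 scale (limma adjusted p = 0.000384). Adam9 had 14187 and 12593 under TGFβ and 14717 and 14259 under SB505124 in KO-labelled cells (-0.12 ± 0.08, limma adjusted p = 0.324) and 14873 and 14170 under TGFβ and 19395 and 18360 under SB505124 in WT cells (-0.38 ± 0.08, limma adjusted p = 0.00142). The WT SB505124 libraries of both genes stood above the other six.

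Adam10 had 9918 and 9048 under TGFβ and 9614 and 9254 under SB505124 in KO-labelled cells, where the treatments overlapped (0.01 ± 0.08, limma adjusted p = 0.964). In WT cells it had 6733 and 6499 under TGFβ and 8041 and 7546 under SB505124, with a log2 fold change of -0.24 ± 0.08 (limma adjusted p = 0.022). Adam23, which lacks the catalytic zinc site and acts in adhesion, had log2 fold changes of 0.03 ± 0.09 in KO-labelled cells (limma adjusted p = 0.838) and -0.25 ± 0.09 in WT cells (limma adjusted p = 0.0257). The call of Adam10 in WT cells was lost without WT TGFβ replicate 2 (limma adjusted p = 0.0765) or WT SB505124 replicate 1 (limma adjusted p = 0.184). The call of Adam23 was lost without WT TGFβ replicate 2 (-0.16, limma adjusted p = 0.211), WT SB505124 replicate 1 (limma adjusted p = 0.196) or WT SB505124 replicate 2 (limma adjusted p = 0.0524). Adam1a, a sperm protein gene, had log2 fold changes of 0.38 ± 0.22 (limma adjusted p = 0.211) in KO-labelled cells and 0.66 ± 0.22 (limma adjusted p = 0.0227) in WT cells, the second a call lost without WT TGFβ replicate 2 (limma adjusted p = 0.106) or WT SB505124 replicate 2 (limma adjusted p = 0.145). Its exons share 63.7% of their bases with Gm42878 and 24% with Mapkapk5, both on the same strand, and the part of these overlaps in its counts was not tested. Gm42878 was not analysed here, and Mapkapk5 rose in WT as well, by 0.35 ± 0.08 (limma adjusted p = 0.0019). For none of the 5 did the difference between the responses of the genotypes pass the threshold.

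Of the 5 members called in KO-labelled cells and not in WT cells, all rose. Mmp14, also called MT1-MMP, is the membrane-anchored collagenase that activates MMP2. It had 6124 and 5478 under TGFβ and 3683 and 4063 under SB505124 in KO-labelled cells, where the treatments were well apart, and 8589 and 7397 under TGFβ and 8034 and 7517 under SB505124 in WT cells, where they overlapped. The log2 fold change was 0.58 ± 0.09 (limma adjusted p = 5.17e-05) in KO-labelled cells and 0.04 ± 0.09 (limma adjusted p = 0.77) in WT cells. Adam22, another member without the zinc site, had 21.2 and 15.4 under TGFβ and 6.51 and 5.18 under SB505124 in KO-labelled cells and 21.1 and 30.9 under TGFβ and 13.2 and 19 under SB505124 in WT cells, with log2 fold changes of 1.48 ± 0.39 (limma adjusted p = 0.00678) in KO-labelled cells and 0.65 ± 0.39 (limma adjusted p = 0.186) in WT cells. Its call was lost without KO-labelled TGFβ replicate 1 (limma adjusted p = 0.0666).

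The other three rose less. Loxl4 had log2 fold changes of 0.24 ± 0.08 (limma adjusted p = 0.0309) in KO-labelled cells and -0.06 ± 0.08 (limma adjusted p = 0.618) in WT cells. Adam15, whose product binds integrins, had 0.37 ± 0.12 (limma adjusted p = 0.0279) in KO-labelled cells and 0.10 ± 0.12 (limma adjusted p = 0.541) in WT cells. Adamtsl4, a fibrillin-binding protein with no protease domain, had 0.41 ± 0.13 (limma adjusted p = 0.0266) in KO-labelled cells and -0.08 ± 0.13 (limma adjusted p = 0.66) in WT cells. Each of these calls was lost without either KO-labelled TGFβ library or without KO-labelled SB505124 replicate 1. In those fits the limma adjusted p was 0.0924 to 0.194 for Loxl4, 0.0587 to 0.311 for Adam15 and 0.0819 to 0.398 for Adamtsl4. The log2 fold change of Adam15 was 0.20 and that of Adamtsl4 also 0.20 without KO-labelled SB505124 replicate 1, and without KO-labelled SB505124 replicate 2 that of Adamtsl4 was 0.62. The Loxl4 call was lost as well without WT SB505124 replicate 1 (limma adjusted p = 0.0551) or WT SB505124 replicate 2 (limma adjusted p = 0.055).

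**Figure D3:**
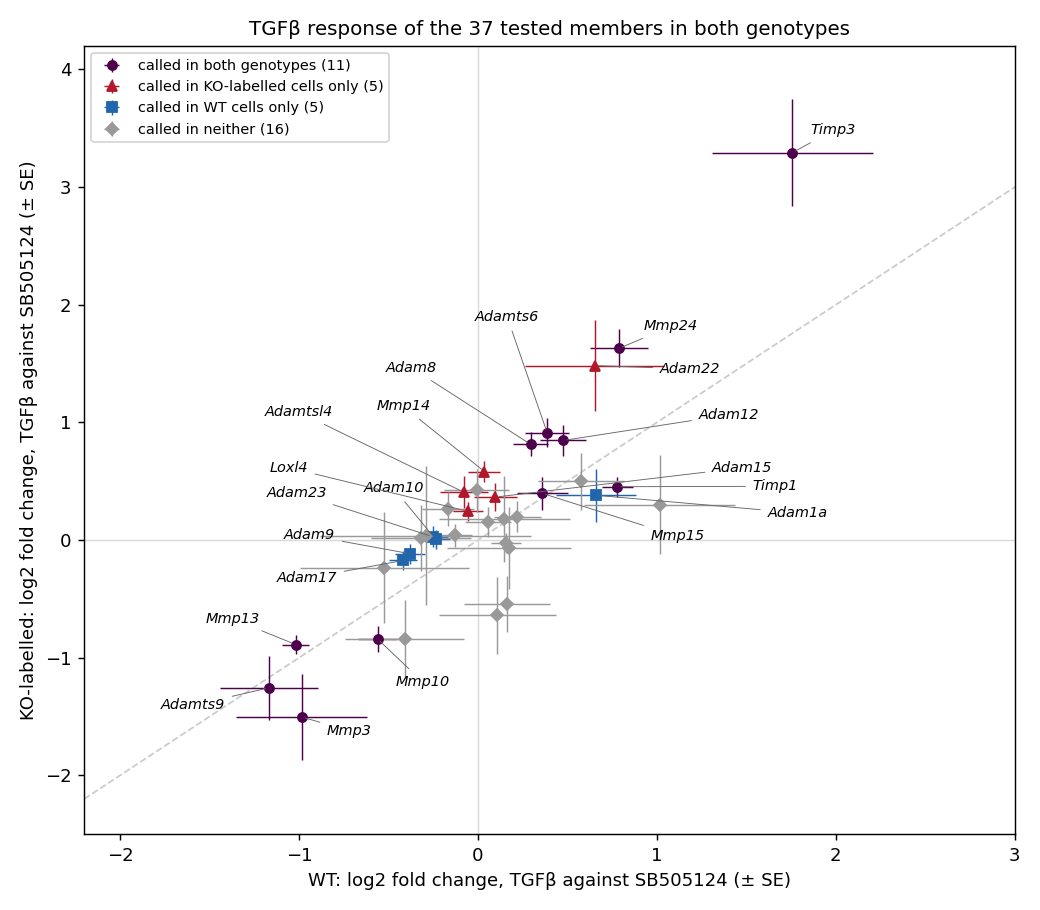
Log2 fold change of TGFβ against SB505124 for the 37 tested members, in KO-labelled cells (vertical axis) and WT cells (horizontal axis), with bars of 1 SE and a dashed line of equal responses. The 11 members called in both genotypes lie in the upper right or lower left, Mmp14 lies at 0.58 in KO-labelled and 0.04 in WT cells, and the fitted value of Timp3 in KO-labelled cells rests on 3 reads under SB505124.

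Whether the responses differed between the genotypes was tested as their difference, KO minus WT. Mmp14 passed, 1 of the 37 members (2.7%), against 2.82% of all genes, 2.25% in the same direction. Its difference was 0.55 ± 0.13 (limma adjusted p = 0.023). The call was lost without KO-labelled TGFβ replicate 1 (limma adjusted p = 0.201), KO-labelled SB505124 replicate 1 (0.0662), WT TGFβ replicate 2 (0.0556), WT SB505124 replicate 1 (0.179) or WT SB505124 replicate 2 (0.0748), with differences of 0.44 to 0.59. At an unadjusted p under 0.05 there were 13 members (35.1%), against 16.8% of all genes, and the median difference over the 37 was 0.24, where that of all genes was 0.02. Mmp24 (0.84 ± 0.23, limma adjusted p = 0.0545) and Adam8 (0.52 ± 0.14, limma adjusted p = 0.0565) missed the threshold narrowly. The difference for Adam8 passed under 7 of the 19 alternatives, edgeR and DESeq2 among them, and that for Mmp24 under 2 of 19. For Mmp13 the difference was 0.13 ± 0.11 (limma adjusted p = 0.593), for Timp1 -0.33 ± 0.12 (limma adjusted p = 0.175) and for Timp3 1.54 ± 0.64 (limma adjusted p = 0.227). The Timp3 difference was 2.46 without KO-labelled SB505124 replicate 2, where it passed (limma adjusted p = 0.00278), 0.61 without KO-labelled SB505124 replicate 1 (limma adjusted p = 0.585) and -0.13 with a pseudocount of 8 (limma adjusted p = 0.891).

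A further 16 tested members were called under TGFβ in neither genotype. They were Timp2, Mmp11, Mmp17, Mmp19, Mmp28, Adam4, Adam11, Adam28, Adamts1, Adamts7, Adamts10, Adamts14, Adamts15, Adamtsl5, Loxl2 and Loxl3. Fitted log2 fold changes among them ran from -0.84 (Adamts1) to 0.50 (Adam4) in KO-labelled cells and from -0.52 (Mmp17) to 1.01 (Adamts7) in WT cells. The last, for a protease that cleaves the cartilage protein COMP, had 144 and 118 under TGFβ and 77 and 53.1 under SB505124 in WT cells, without overlap (limma adjusted p = 0.0594), and passed in edgeR and DESeq2. Adamts1, which cleaves versican, had 8.66 and 6.15 under TGFβ and 14.9 and 13 under SB505124 in KO-labelled cells (limma adjusted p = 0.0632). Loxl2, the second lysyl oxidase by level, had 2662 and 2431 under TGFβ and 2533 and 2639 under SB505124 in KO-labelled cells and 3439 and 3084 under TGFβ and 3048 and 2806 under SB505124 in WT cells, with log2 fold changes of -0.02 ± 0.08 (limma adjusted p = 0.866) in KO-labelled cells and 0.16 ± 0.08 (limma adjusted p = 0.144) in WT cells.

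Set against WT cells under the same agent, the KO-labelled cells had lower levels of most members. Under TGFβ 26 of the 37 members were called, 6 higher and 20 lower. Lower calls made up 54.1% of the members against 30.2% of all genes, and higher calls 16.2% against 32.7%. In either direction 62.9% of all genes were called. Under SB505124 the members again gave 26 calls, 5 higher and 21 lower, with 56.8% lower against 27.7% of all genes, and 13.5% higher against 29.2%. In either direction 56.9% of all genes were called. The median log2 difference of the members was -0.52 under TGFβ and -0.50 under SB505124, while that of all genes was 0.01 under each. Calls of at least 2-fold lower numbered 14 members under TGFβ (37.8%, against 8.38% of all genes) and 15 under SB505124 (40.5%, against 8.33%). Adamts15 was the member called at least 2-fold higher under each (2.7%, against 8.07% of all genes under TGFβ and 6.71% under SB505124). The 2 comparisons share no libraries, and 22 members were called in both, 84.6% of each list, all with the same direction. Over all genes, 6054 were called in both with the same direction, 77% of the calls under TGFβ and 85.1% of those under SB505124.

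Adamts7 and Adamts14 were at or near 0 in KO-labelled cells. Adamts7 had 0.963 and 3.08 in KO-labelled TGFβ libraries and 0.931 and 1.73 in KO-labelled SB505124 libraries, against 144 and 118 in WT TGFβ libraries and 77 and 53.1 in WT SB505124 libraries. No KO-labelled library exceeded 3 reads. The ratio of WT to KO-labelled cells under SB505124 was 48.3 (exact 95% interval 16.2 to 238, limma adjusted p = 1.41e-08), and the log2 difference under TGFβ was -5.54 ± 0.42 (limma adjusted p = 1.89e-09). Adamts14, which removes the N-terminal propeptide of procollagens, had 1 read in the KO-labelled TGFβ libraries and 1 in the KO-labelled SB505124 libraries. Its normalised counts were 29.5 and 21.7 in WT TGFβ libraries and 32.4 and 30 in WT SB505124 libraries. The ratio of WT to KO-labelled cells was 51.9 under TGFβ (exact 95% interval 8.87 to 2090) and 69.7 under SB505124 (12.1 to 2800), with counting error only in these intervals. Its limma adjusted p was 5.25e-06 under TGFβ and 2.42e-06 under SB505124. Adamts7 and Adamts14 reached the mean of 10 only through the WT libraries. Their p-values and ratios draw on the same libraries and are no test of the genotype difference. Both genes are among the lower calls counted above.

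Adamts1, Adamts9 and Adamts10 were lower too. Adamts1 had 8.66 and 6.15 in KO-labelled TGFβ libraries and 14.9 and 13 in KO-labelled SB505124 libraries, against 28.4 and 33.1 in WT TGFβ libraries and 37.5 and 45.1 in WT SB505124 libraries. Its log2 difference was -1.93 ± 0.33 (limma adjusted p = 5.90e-05) under TGFβ and -1.50 ± 0.33 (limma adjusted p = 0.000805) under SB505124. For Adamts9 the difference was -1.39 ± 0.27 (limma adjusted p = 0.000234) under TGFβ and -1.30 ± 0.27 (limma adjusted p = 0.000502) under SB505124. Adamts10, a protease linked to fibrillin microfibrils, had 169 and 148 in KO-labelled TGFβ libraries and 109 and 127 in KO-labelled SB505124 libraries, against 443 and 281 in WT TGFβ libraries and 402 and 312 in WT SB505124 libraries. The genotypes did not overlap, with differences of -1.15 ± 0.18 (limma adjusted p = 2.17e-05) under TGFβ and -1.58 ± 0.18 (limma adjusted p = 5.28e-07) under SB505124. Adamtsl5 was lower by 0.52 ± 0.13 under TGFβ and 0.50 ± 0.13 under SB505124 (limma adjusted p = 0.00182 and 0.0028). Without WT TGFβ replicate 1 the TGFβ difference of Adamtsl5 was -0.33 (limma adjusted p = 0.0326), and without WT SB505124 replicate 1 its SB505124 call was lost (-0.38, limma adjusted p = 0.0702).

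Going the other way, Adamts15, an aggrecan-cleaving protease, was the most abundant ADAMTS gene of the set per kb. It had 792 and 707 in KO-labelled TGFβ libraries and 599 and 646 in KO-labelled SB505124 libraries, against 313 and 221 in WT TGFβ libraries and 328 and 265 in WT SB505124 libraries. Every KO-labelled library lay above every WT library. The log2 difference was 1.51 ± 0.14 (limma adjusted p = 4.19e-08) under TGFβ and 1.07 ± 0.14 (limma adjusted p = 3.62e-06) under SB505124. Adamts6 was higher under TGFβ, by 0.63 ± 0.12 (limma adjusted p = 0.00018), and differed by 0.11 ± 0.12 (limma adjusted p = 0.466) under SB505124.

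Of the lysyl oxidases, Loxl4 was lower in KO-labelled cells in each comparison. It had 842 and 815 in KO-labelled TGFβ libraries and 680.3 and 719 in KO-labelled SB505124 libraries, against 4447 and 3974 in WT TGFβ libraries and 4452 and 4287 in WT SB505124 libraries. The gap between genotypes was many times the gap between replicates, at -2.34 ± 0.08 (limma adjusted p = 2.55e-14) under TGFβ and -2.64 ± 0.08 (limma adjusted p = 4.75e-15) under SB505124. Loxl3 was lower by 1.15 ± 0.37 under TGFβ and 1.18 ± 0.37 under SB505124 (limma adjusted p = 0.0106 and 0.00995). Those calls were lost without KO-labelled TGFβ replicate 1 (-0.68, limma adjusted p = 0.165) and without WT SB505124 replicate 1 (limma adjusted p = 0.12). Loxl2 differed by -0.36 ± 0.08 (limma adjusted p = 0.00113) under TGFβ and -0.18 ± 0.08 (limma adjusted p = 0.0782) under SB505124. The median over the 392 tested genes of chromosome 14, where Loxl2, Mmp14 and Adam28 lie, was -0.58 under TGFβ and -0.62 under SB505124. Whether this shift bears on these genes was not tested.

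Both inhibitors that rose under TGFβ were lower in KO-labelled cells. For Timp1 the log2 difference was -1.16 ± 0.09 (limma adjusted p = 1.40e-09) under TGFβ and -0.84 ± 0.09 (limma adjusted p = 1.33e-07) under SB505124. The difference for Timp3 was -3.04 ± 0.45 (limma adjusted p = 1.06e-05) under TGFβ, and under SB505124 the ratio of WT to KO-labelled cells was 33.0 (exact 95% interval 10.9 to 163, limma adjusted p = 7.00e-08). Timp2 had 46202 and 42506 in KO-labelled TGFβ libraries and 42509 and 43589 in KO-labelled SB505124 libraries, against 52022 and 47116 in WT TGFβ libraries and 55935 and 52512 in WT SB505124 libraries. It was lower under SB505124 by 0.33 ± 0.10 (limma adjusted p = 0.00694) and differed by -0.16 ± 0.10 (limma adjusted p = 0.163) under TGFβ. The SB505124 call was lost without KO-labelled SB505124 replicate 1 (limma adjusted p = 0.0658) or WT SB505124 replicate 1 (limma adjusted p = 0.0758).

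Among the MMP genes, Mmp11, Mmp15, Mmp24, Mmp3 and Mmp14 were lower under each agent. Mmp11, or stromelysin 3, is activated inside the cell by furin. It had 139.6 and 129 in KO-labelled TGFβ libraries and 119 and 122 in KO-labelled SB505124 libraries, against 503 and 426 in WT TGFβ libraries and 463 and 429 in WT SB505124 libraries. Its treatments overlapped in WT cells, while the genotypes were far apart (-1.78 ± 0.13 under TGFβ, limma adjusted p = 1.04e-09, and -1.88 ± 0.13 under SB505124, limma adjusted p = 4.94e-10). Mmp24 differed by -1.30 ± 0.16 (limma adjusted p = 1.22e-06) under TGFβ and -2.14 ± 0.16 (limma adjusted p = 1.73e-09) under SB505124. Mmp15 differed by -1.22 ± 0.14 (limma adjusted p = 5.33e-07) under TGFβ and -1.25 ± 0.14 (limma adjusted p = 4.11e-07) under SB505124. For Mmp3 the difference was -2.46 ± 0.36 (limma adjusted p = 1.06e-05) under TGFβ and -1.94 ± 0.36 (limma adjusted p = 0.000161) under SB505124. Mmp14 was lower by 0.46 ± 0.09 under TGFβ (limma adjusted p = 0.000201) and by 1.01 ± 0.09 under SB505124 (limma adjusted p = 1.86e-08).

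Mmp28 and Mmp19, 2 scarce genes, were lower under TGFβ, by 0.96 ± 0.24 (limma adjusted p = 0.00193) and 0.82 ± 0.33 (limma adjusted p = 0.0352). The second call was lost without KO-labelled TGFβ replicate 1 (0.132), KO-labelled TGFβ replicate 2 (0.0575) or WT TGFβ replicate 1 (0.176), as limma adjusted p. Under SB505124 their differences were -0.25 ± 0.24 and -0.07 ± 0.33 and were not called. Mmp13 was higher in KO-labelled cells, by 0.32 ± 0.08 (limma adjusted p = 0.00143) under TGFβ and 0.19 ± 0.08 (limma adjusted p = 0.044) under SB505124. The SB505124 call of Mmp13 was lost without any 1 of KO-labelled TGFβ replicates 1 and 2, KO-labelled SB505124 replicate 1 and WT SB505124 replicates 1 and 2 (limma adjusted p = 0.0606 to 0.35), the value being 0.12 without KO-labelled SB505124 replicate 1. Mmp10 was not called between genotypes (-0.22 ± 0.11 under TGFβ and 0.06 ± 0.11 under SB505124, limma adjusted p = 0.0952 and 0.654).

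The ADAM genes went both ways. Adam12 was lower, at 357 and 266 in KO-labelled TGFβ libraries and 175 and 167 in KO-labelled SB505124 libraries, against 1120 and 1026 in WT TGFβ libraries and 821 and 722 in WT SB505124 libraries. Its genotypes were apart by -1.80 ± 0.13 (limma adjusted p = 7.95e-10) under TGFβ and -2.17 ± 0.13 (limma adjusted p = 5.09e-11) under SB505124. Adam17 was lower by 0.29 ± 0.08 under TGFβ (limma adjusted p = 0.00405) and by 0.54 ± 0.08 under SB505124 (limma adjusted p = 1.37e-05), the first lost without KO-labelled TGFβ replicate 2 (limma adjusted p = 0.0813). Adam10 was higher, by 0.52 ± 0.08 (limma adjusted p = 1.51e-05) under TGFβ and 0.28 ± 0.08 (limma adjusted p = 0.00597) under SB505124. So the main pair of sheddases differed from WT in opposite directions. The SB505124 call of Adam10 was lost without KO-labelled SB505124 replicate 1 (limma adjusted p = 0.052) or WT SB505124 replicate 2 (limma adjusted p = 0.0794).

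Adam23 had 1542 and 1513 in KO-labelled TGFβ libraries and 1526 and 1468 in KO-labelled SB505124 libraries, against 1017 and 896 in WT TGFβ libraries and 1179 and 1098 in WT SB505124 libraries. The KO-labelled libraries were all higher, by 0.68 ± 0.09 (limma adjusted p = 2.08e-06) under TGFβ and 0.40 ± 0.09 (limma adjusted p = 0.00079) under SB505124. Adam8 was higher by 0.80 ± 0.10 (limma adjusted p = 1.34e-06) under TGFβ and by 0.28 ± 0.10 (limma adjusted p = 0.0219) under SB505124. That SB505124 call was lost without KO-labelled SB505124 replicate 2 (0.15, limma adjusted p = 0.248) or WT SB505124 replicate 2 (limma adjusted p = 0.208). Adam9, Adam15 and Adam22 were lower under SB505124, by 0.38 ± 0.08 (limma adjusted p = 0.000776), 0.38 ± 0.12 (limma adjusted p = 0.0115) and 1.31 ± 0.39 (limma adjusted p = 0.00767). The Adam15 call was lost without KO-labelled SB505124 replicate 1 (-0.22, limma adjusted p = 0.159) or WT SB505124 replicate 1 (limma adjusted p = 0.0921), and that of Adam22 without WT SB505124 replicate 2 (limma adjusted p = 0.0759). Adam4, Adam11, Adam28 and Mmp17 were called in none of the 5 contrasts. Adam4 lies within Cox16, a gene on the same strand, so its counts are uncertain.

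**Figure D4:**
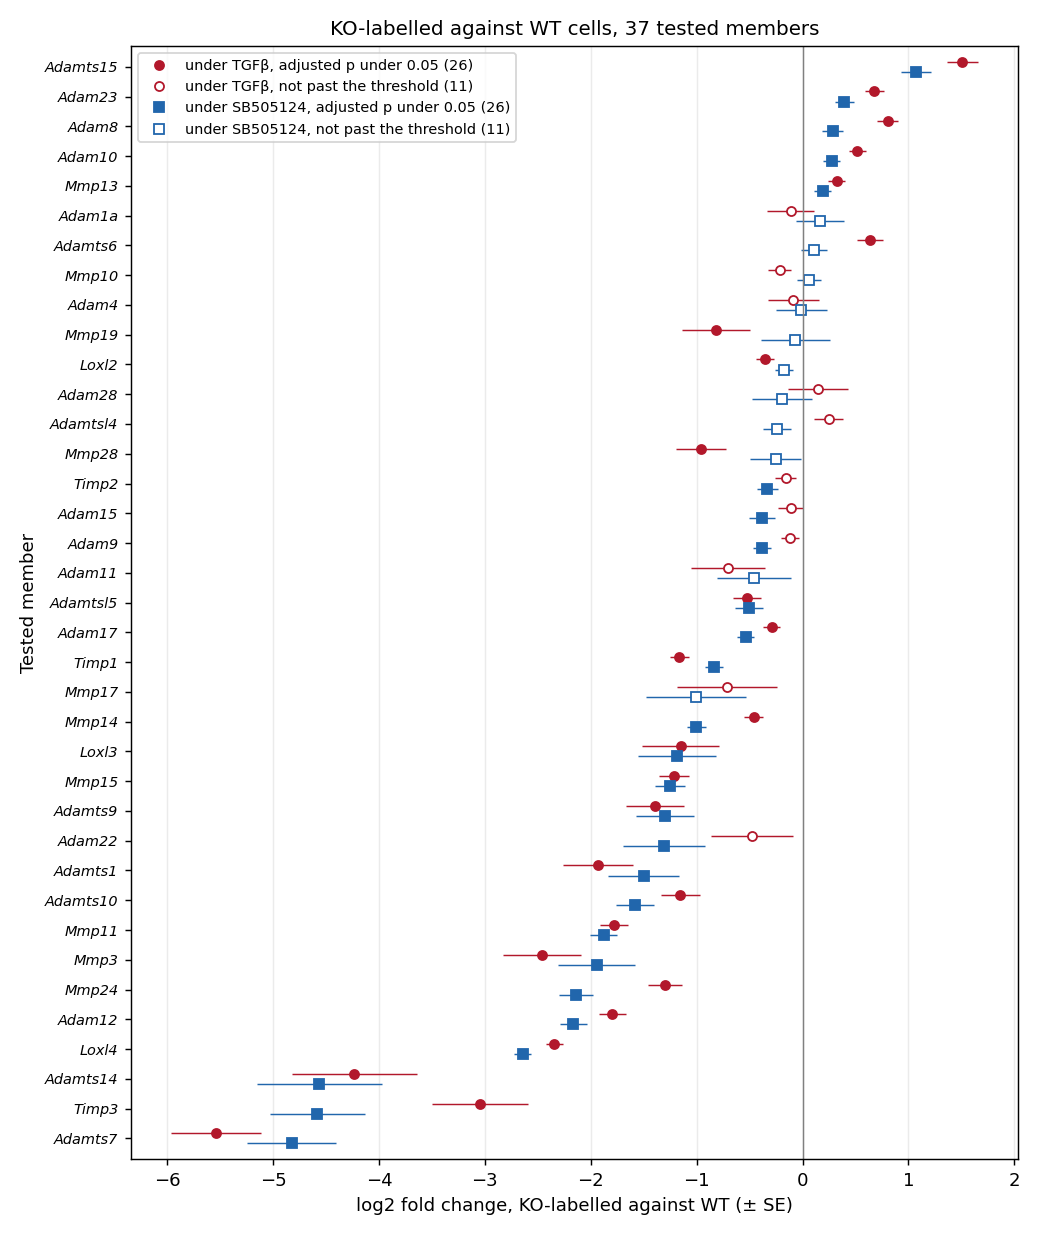
Log2 fold change of KO-labelled against WT cells for the 37 tested members under TGFβ (circles) and SB505124 (squares), with bars of 1 SE and filled symbols where the limma adjusted p is under 0.05. Adamts15 is the highest at 1.51 and 1.07, and the fitted values of Adamts7, Adamts14 and Timp3 at the bottom rest on few reads in KO-labelled libraries and depend on the pseudocount.

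Among the 8 scarce members, Lox, the founding lysyl oxidase, had 1 read in the KO-labelled TGFβ libraries and none in the KO-labelled SB505124 libraries. Its normalised counts were 24.2 and 13.7 in WT TGFβ libraries and 3.04 and 1.00 in WT SB505124 libraries, so the WT TGFβ libraries stood above the other six. The ratio of WT to KO-labelled cells under TGFβ was 38.6 (exact 95% interval 6.49 to 1570, counting error only). In a fit of genes with a mean of at least 5, the log2 fold change of Lox under TGFβ in WT cells was 2.76 ± 0.76. Lox reached that mean only through the WT TGFβ libraries (mean 19.0, against 2.02 in WT SB505124 libraries). This fit is therefore no test of the rise, and the ratio above draws on the same libraries. Loxl1 had 0 and 3.08 in KO-labelled TGFβ libraries and 1.86 and 2.59 in KO-labelled SB505124 libraries, against 22.1 and 11.4 in WT TGFβ libraries and 20.3 and 11 in WT SB505124 libraries. The ratio of WT to KO-labelled cells was 11.4 under TGFβ (exact 95% interval 3.56 to 58.3). Loxl1 reached the mean of 5 only through the WT libraries, so this ratio is no test of the genotype difference. Mmp9, or gelatinase B, had 13.5 and 8.20 in KO-labelled TGFβ libraries, 2.79 and 2.59 in KO-labelled SB505124 libraries, 11.6 and 2.29 in WT TGFβ libraries and 0 and 7.01 in WT SB505124 libraries, with overlap in WT cells. Adam32 lay at 2.59 to 7.45 in KO-labelled libraries and 13.7 to 14.2 in WT libraries. Adamtsl3 lay at 0 to 3.45 in KO-labelled libraries and 6.01 to 12.2 in WT libraries, and it reached the mean of 5 only through the latter. Adamts4, an aggrecan-cleaving protease, ranged from 2.11 to 8.66 over the 8 libraries, Adamts13 from 3.16 to 10 and Mmp23 from 5.58 to 12.6.

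Because the kit does not mark the strand, reads where genes overlap on opposite strands are not separated. Exon overlaps with an opposite gene covered 22.3% of Mmp19 (Tmem198b), 13.6% of Mmp24 (BC029722), 12% of Mmp28 (1700020L24Rik), 11.6% of Loxl3 (Htra2), 5.6% of Mmp11 (Chchd10), 4.3% of Adam17 (Iah1) and 1.9% of Adamts7 (Tbc1d2b), besides Timp3 and Syn3. Antisense transcripts overlapped 20.6% of Adam15. The share of reads that these overlaps moved was not tested. Htra2 averaged 1167, far more than Loxl3.

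Genes that act with the members were taken from 5 lists, whose counts stand beside 15.1% of all genes called higher and 15.8% called lower under TGFβ in KO-labelled cells, and 20.2% higher and 23.2% lower in WT cells. Of 14 tested activators and inhibitors of metalloproteases, 7 were higher and none lower under TGFβ in KO-labelled cells, and 7 were higher and 3 lower in WT cells. Furin, the convertase that activates membrane-type MMPs, Mmp11 and ADAM proenzymes, averaged 14660 in KO-labelled TGFβ libraries and 5883 in KO-labelled SB505124 libraries, a log2 fold change of 1.33 ± 0.11 (limma adjusted p = 3.02e-08). In WT cells it averaged 9470 under TGFβ and 5566 under SB505124 (0.76 ± 0.11, limma adjusted p = 3.78e-05). Pcolce2, an enhancer of procollagen processing, rose by 1.41 ± 0.10 in KO-labelled cells (limma adjusted p = 1.41e-09) and by 0.74 ± 0.10 in WT cells (limma adjusted p = 8.59e-06). Its difference of responses, KO minus WT, passed (0.67 ± 0.14, limma adjusted p = 0.0104), 1 of the 14 genes, against 2.82% of all genes. The inactive rhomboids Rhbdf1 and Rhbdf2 escort ADAM17 to the cell surface. Rhbdf1 rose by 0.87 ± 0.12 in KO-labelled cells (limma adjusted p = 8.75e-06) and by 0.54 ± 0.12 in WT cells (limma adjusted p = 0.00101), and Rhbdf2 by 0.78 ± 0.11 in KO-labelled cells (limma adjusted p = 1.83e-05) and by 0.38 ± 0.11 in WT cells (limma adjusted p = 0.00991). Pcsk6, another convertase, had log2 fold changes of -0.07 ± 0.09 (limma adjusted p = 0.634) in KO-labelled cells and -0.43 ± 0.09 (limma adjusted p = 0.00117) in WT cells.

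Substrates of the ADAM10 and ADAM17 sheddases gave 8 higher and 2 lower of 15 in KO-labelled cells and 7 higher and 2 lower in WT cells. The Notch ligand gene Jag1 averaged 18040 in KO-labelled TGFβ libraries and 3029 in KO-labelled SB505124 libraries, and 9983 in WT TGFβ libraries and 2544 in WT SB505124 libraries. Its log2 fold change was 2.57 ± 0.08 in KO-labelled cells (limma adjusted p = 1.37e-14) and 1.97 ± 0.08 in WT cells (limma adjusted p = 1.11e-12). Efna1 rose by 1.83 ± 0.08 in KO-labelled cells (limma adjusted p = 3.54e-12) and by 1.29 ± 0.08 in WT cells (limma adjusted p = 7.45e-10). Areg, an EGF receptor ligand, rose by 1.37 ± 0.08 in KO-labelled cells (limma adjusted p = 1.58e-10) and by 0.78 ± 0.08 in WT cells (limma adjusted p = 4.95e-07). The Notch ligand gene Dll1 rose by 3.95 ± 0.28 in KO-labelled cells (limma adjusted p = 2.07e-09) and by 2.40 ± 0.28 in WT cells (limma adjusted p = 2.28e-06). The ephrin gene Efna2 rose by 2.03 ± 0.16 in KO-labelled cells (limma adjusted p = 8.83e-09) and by 1.41 ± 0.16 in WT cells (limma adjusted p = 1.35e-06). In the difference of responses, KO minus WT, 5 of the 15 genes were called higher and 1 lower, against 2.25% and 0.568% of all genes. Jag1 differed by 0.60 ± 0.12 (limma adjusted p = 0.00584) and Areg by 0.59 ± 0.12 (limma adjusted p = 0.00694). Efna1 differed by 0.54 ± 0.12 (limma adjusted p = 0.0174) and Dll1 by 1.56 ± 0.40 (limma adjusted p = 0.043). Efna2 was not called in this difference. Hbegf, the gene called lower, differed by -0.45 ± 0.12 (limma adjusted p = 0.043). Its log2 fold change under TGFβ was -0.24 ± 0.08 in KO-labelled cells (limma adjusted p = 0.0322). In WT cells it was 0.21 ± 0.08 (limma adjusted p = 0.0473). For Nrg1 it was -0.63 ± 0.09 in KO-labelled cells (limma adjusted p = 1.3e-05). In WT cells that of Nrg1 was -0.54 ± 0.09 (limma adjusted p = 5.66e-05).

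Of 10 other zinc metalloproteases, 2 were higher and 1 lower in KO-labelled cells and 3 higher and 2 lower in WT cells. Bmp1, the procollagen C-proteinase, which also matures lysyl oxidase, rose by 0.77 ± 0.10 in KO-labelled cells (limma adjusted p = 6.83e-06) and by 0.57 ± 0.10 in WT cells (limma adjusted p = 0.000176). Mme (neprilysin) fell by 1.47 ± 0.21 in KO-labelled cells (limma adjusted p = 1.62e-05) and by 1.08 ± 0.21 in WT cells (limma adjusted p = 0.000345). The carboxypeptidase gene Cpe rose by 0.30 ± 0.08 in KO-labelled cells (limma adjusted p = 0.00923) and by 0.28 ± 0.08 in WT cells (limma adjusted p = 0.0107). Ece2 had log2 fold changes of 0.06 ± 0.10 (limma adjusted p = 0.721) in KO-labelled cells and 0.43 ± 0.10 (limma adjusted p = 0.00281) in WT cells. Mep1a averaged 945.8 in KO-labelled TGFβ libraries and 1156 in KO-labelled SB505124 libraries and was not called there (-0.29 ± 0.12, limma adjusted p = 0.0734). In WT cells it averaged 112 under TGFβ and 141 under SB505124, with a log2 fold change of -0.32 ± 0.12 (limma adjusted p = 0.0343).

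Of 14 genes of collagen modification and cross-linking, 6 were higher and 1 lower in KO-labelled cells and 5 higher and 1 lower in WT cells. The transglutaminase gene Tgm2 rose by 0.55 ± 0.07 in KO-labelled cells (limma adjusted p = 1.19e-05) and by 0.65 ± 0.07 in WT cells (limma adjusted p = 1.47e-06). Leprel1, a prolyl 3-hydroxylase gene, fell by 0.81 ± 0.13 in KO-labelled cells (limma adjusted p = 6.84e-05) and by 1.07 ± 0.13 in WT cells (limma adjusted p = 2.62e-06). Fbln2 had log2 fold changes of 0.81 ± 0.11 (limma adjusted p = 1.76e-05) in KO-labelled cells and 0.17 ± 0.11 (limma adjusted p = 0.236) in WT cells, and Ppib 0.33 ± 0.09 (limma adjusted p = 0.00984) in KO-labelled cells and 0.19 ± 0.09 (limma adjusted p = 0.0996) in WT cells. Efemp2 rose by 0.28 ± 0.09 in KO-labelled cells (limma adjusted p = 0.0189) and by 0.38 ± 0.09 in WT cells (limma adjusted p = 0.00145). Plod2 had 0.18 ± 0.08 (limma adjusted p = 0.0902) in KO-labelled cells and 0.32 ± 0.08 (limma adjusted p = 0.00316) in WT cells. The difference of responses, KO minus WT, passed for Fbln2, at 0.64 ± 0.16 (limma adjusted p = 0.0382), 1 of these 14 genes, against 2.82% of all genes. Among 10 genes of hyalectans and latent TGFβ, which are substrates or activation partners, 6 were higher and 1 lower in KO-labelled cells and 2 higher and 1 lower in WT cells. Itgb6, a subunit of an integrin that activates latent TGFβ, rose by 1.89 ± 0.08 in KO-labelled cells (limma adjusted p = 1.1e-12) and by 1.70 ± 0.08 in WT cells (limma adjusted p = 7.12e-12). Ltbp3, a latent TGFβ binding protein, rose by 0.93 ± 0.13 in KO-labelled cells (limma adjusted p = 1.57e-05) and by 0.80 ± 0.13 in WT cells (limma adjusted p = 7.91e-05). Ltbp1 had log2 fold changes of 0.40 ± 0.08 (limma adjusted p = 0.00105) in KO-labelled cells and 0.14 ± 0.08 (limma adjusted p = 0.19) in WT cells, and Itgav 0.38 ± 0.08 (limma adjusted p = 0.00194) in KO-labelled cells and 0.15 ± 0.08 (limma adjusted p = 0.175) in WT cells. Vcan, the versican substrate of Adamts1 and Adamts9, averaged 24.5 under TGFβ and 44.9 under SB505124 in KO-labelled cells, with a log2 fold change of -0.88 ± 0.21 (limma adjusted p = 0.00365), and 100.7 under TGFβ and 238 under SB505124 in WT cells, with -1.23 ± 0.21 (limma adjusted p = 0.000132). Dcn (decorin), read almost solely in WT libraries, averaged 48.9 under TGFβ and 90.1 under SB505124 there and was not called (limma adjusted p = 0.157).

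Between the genotypes these lists stand beside 32.7% of all genes called higher and 30.2% called lower in KO-labelled cells under TGFβ, and 29.2% higher and 27.7% lower under SB505124. Under TGFβ 4 of the 14 activators and inhibitors were higher and 4 lower, and under SB505124 2 were higher and 6 lower. Of the 14 genes of collagen modification, 3 were higher and 10 lower under TGFβ, and 2 were higher and 10 lower under SB505124. The other zinc metalloproteases gave 3 higher and 7 lower of 10 under TGFβ, and 3 higher and 6 lower under SB505124. Shed ligands gave 6 higher and 7 lower of 15 under TGFβ, and 5 higher and 8 lower under SB505124, and hyalectans and latent TGFβ genes 4 higher and 5 lower of 10 under TGFβ, and 1 higher and 6 lower under SB505124.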

How the data were processed

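RNA of NMuMG cells was sequenced in 8 libraries. For every gene and library the authors deposited a signal value, in which the read count is scaled by a size factor. The submitters' processing notes name DESeq2 3.4, HTSeq 0.6.1p1, FastQC 0.11.5 and, as genome, mm10, while the aligner is not given in the sources used here. The TruSeq RNA Sample Prep v2 kit named in the labels keeps no strand information. Values within a library were whole multiples of 1 step (100% within 0.01 reads), from which reads and size factors (0.875 to 1.16) were recovered.

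Genes with a mean of at least 10 were tested (12498 genes). Log2(value + 1) was fitted in limma 3.58.1, run in R 4.3.3, with the means of the 4 groups, all 8 libraries and a trended variance (4 residual and 14.3 prior degrees of freedom), and with Benjamini-Hochberg adjustment over all genes of a contrast and a threshold of 0.05. Log2 fold changes are therefore understated for scarce genes. Ratios for groups with 1 to 3 reads are of normalised reads, with exact 95% intervals. Values per kb are normalised counts divided by the exon length of GENCODE M21. All 45 members had a position there (GRCm38, which is mm10), and 27 had a RefSeq promoter window.

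The members, the 5 pathway lists and the 5 marker lists were chosen with earlier results of these data known. Named were the members that passed in at least 1 of 5 contrasts, 14 well-known genes whatever their values, and up to 4 genes of each other list with the smallest p in each treatment contrast. Hbegf and Nrg1, shed ligands called lower under TGFβ in KO-labelled cells, were named in addition. Other members are given by range and count. Alternatives were edgeR 4.0.16 (quasi-likelihood, TMM) and DESeq2 1.42.0 on recovered reads, other filters, pseudocounts and scalings, no variance trend, only the 4 libraries compared, a replicate block and each library left out. The procedure was tested on simulated data. Replicates differed by more than sampling noise (chi-square per degree of freedom 6.13 to 15.6).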

Additional observations from a re-analysis of the deposited data

Results flagged for a closer look

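The response of Mmp14 to TGFβ differed between the genotypes by a tested interaction of 0.55 ± 0.13 (log2, KO minus WT, SE; limma adjusted p = 0.023). The gene was higher under TGFβ by 0.58 in KO-labelled cells and by 0.04 in WT cells. Of 19 alternatives, 7 lost the call, and all kept its direction.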

How the results depend on the processing

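No called member changed direction in any alternative that was run. Of the calls, 10 of 16 for TGFβ in KO-labelled cells, 7 of 16 for TGFβ in WT cells, 23 of 26 between genotypes under TGFβ and 18 of 26 between genotypes under SB505124 passed in every alternative, and 0 of 1 for the difference of responses. Leaving out single libraries gave 12 to 17 member calls for TGFβ in KO-labelled cells, 9 to 18 in WT cells (9 without WT SB505124 replicate 2), 24 to 27 between genotypes under TGFβ and 21 to 26 under SB505124. Over all genes it gave 2320 to 4410 calls for TGFβ in KO-labelled cells, where 3864 were called with all libraries, 2320 without KO-labelled TGFβ replicate 2 and 2332 without KO-labelled SB505124 replicate 1. The difference of responses was the least stable. Its 352 calls over all genes became 134 with no low-value filter, 47 with no variance trend and 141 to 1027 with a library left out (150 without KO-labelled TGFβ replicate 1, 141 and 168 without WT SB505124 replicates 1 and 2, 1027 without WT TGFβ replicate 1). Its 1 member call became 0 with no low-value filter, 2 with a mean of at least 50, a pseudocount of 8, edgeR or DESeq2, 3 with TMM scaling and 0 to 6 with a library left out, and the cause was not tested. Mmp14 was lost in 7 alternatives, and Adam8 passed in 7.

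On recovered reads edgeR called 4023 genes for TGFβ in KO-labelled cells, 5552 in WT cells, 418 for the difference, 7926 between genotypes under TGFβ and 7233 under SB505124. Its member calls were 16, 17, 2, 26 and 27 in the same comparisons, and those of DESeq2 13, 14, 2, 24 and 24. Same-numbered samples did not deviate together in every pair of groups (correlations -0.199 to 0.198), so the numbers are not taken as pairs. With a replicate block the member calls were 13, 15, 1, 26 and 26, and the calls over all genes 3658, 5359, 252, 7835 and 7103. Scaling to other totals moved the median of all genes to at most 0.06 from 0. With 2 libraries a group, small changes of scarce members could not be detected at this depth.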
